A study of Mus musculus with 12 samples.

Results

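Among the genes listed as higher in tdTomato+ than in tdTomato- group 2 innate lymphoid cells (ILC2s) of the lung, 24 were long non-coding RNAs (lncRNAs), pseudogenes or a locus of the type TEC. TEC is the annotation's type for a transcribed locus whose product has not been established by experiment. They were chosen by the gene type printed beside each gene, which was matched by 26 of the 3439 listed genes. Of these, 2 were left out because their symbols begin with Vmn, the prefix of the vomeronasal receptors. The 24 genes comprised 17 lncRNAs, 6 pseudogenes and 1 TEC locus, and 0 of them stood among the 2906 genes listed as lower, all of which were typed as protein coding. The 533 higher genes also held 497 protein-coding genes and 10 genes typed as major satellite repeats.

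The cells came from male mice of the genotype TIGIT-Cre-ERT2:Rosa26-LSL-tdTomato that had received papain, a protease allergen, and tamoxifen. In these mice a tamoxifen-dependent Cre made from the Tigit locus removes a stop cassette, so that cells that have expressed the inhibitory receptor TIGIT become red, and both populations share the transgenes, the allergen and the drug. RNA-seq covered 4 libraries of tdTomato- and 4 of tdTomato+ ILC2s, and the 4 ATAC-seq libraries, 2 of each population, were not analysed here. The tables hold no value of a single library, so the depth per library and the spread between replicates are unknown here, and no value below carries an SD, an n or a test.

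The level given for each gene is its average log2 CPM (the log2 of a read count scaled to the size of its library), the authors' mean over the libraries of their fit, both populations together. It therefore says how abundant a transcript was in the whole comparison and not how far the populations differed. The least value in the tables was 5.00, which is 32 CPM, so a gene below that level cannot appear whatever its difference. To compare genes of unequal length, the mean was also divided by the exon length of the gene and is then given as CPM per kb.

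The labelled cell type was checked against a list of markers. All 12 ILC2 markers of the list, from the transcription factor Gata3 to the cytokines Il5 and Il13, were listed as lower, with average log2 CPM from 6.27 to 9.98. For reference, 13.2% of all 21951 annotated protein-coding genes were listed as lower and 2.31% as higher. In pooled cells and on a scale relative to library size, fewer cells that make a transcript and less of it per cell cannot be told apart, and this holds for every listing below. Of 23 markers of T, NK and B cells, macrophages, epithelium and endothelium, 1 was listed, the T cell receptor subunit Cd3g, as lower at 6.12, and 22 were not listed. A gene that is not listed may be unchanged or below the minimum level.

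Long non-coding RNAs are transcripts with no long reading frame, and some act where they are made, for example by silencing neighbouring genes on one parental chromosome. Others are known mainly as hosts, whose introns and exons are cut into microRNAs or small nucleolar RNAs (snoRNAs). Pseudogenes are copies of genes that have lost the ability to encode the protein. Processed copies come from a spliced mRNA that was written back into the genome, unprocessed copies from a duplication of the DNA, and a unitary pseudogene is a gene that decayed with no intact copy left.

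Of the lncRNAs, 3 span microRNA genes, and these microRNAs are shown because they are what such host transcripts are best known for. RefSeq lists 23 mature microRNAs from 13 genes on the same strand within the 3 hosts. Mir100hg is the host of an old and conserved cluster, Rian that of a group in an imprinted region, and A230057D06Rik that of the Mir344 family. Each sequence is written 5′ to 3′ with its seed, bases 2 to 8, in capitals, and its position in GRCm38. The sequence of miR-344h-3p is found in a pair of genes, of which one is placed. The microRNAs themselves were not measured in these libraries.
mmu-miR-100-5p (Mir100hg, chr9:41531437-41531458, plus strand): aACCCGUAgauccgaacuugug
mmu-miR-125b-5p (Mir100hg, chr9:41581940-41581961, plus strand): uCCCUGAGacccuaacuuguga
mmu-let-7a-2-3p (Mir100hg, chr9:41536777-41536797, plus strand): cUGUACAGccuccuagcuuuc
mmu-miR-341-3p (Rian, chr12:109611556-109611576, plus strand): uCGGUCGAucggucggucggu
mmu-miR-370-3p (Rian, chr12:109618305-109618326, plus strand): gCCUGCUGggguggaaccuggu
mmu-miR-344-3p (A230057D06Rik, chr7:61877782-61877804, minus strand): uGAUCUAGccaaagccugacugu
mmu-miR-344c-3p (A230057D06Rik, chr7:61837323-61837345, minus strand): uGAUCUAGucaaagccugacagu
mmu-miR-344d-3p (A230057D06Rik, chr7:61726256-61726277, minus strand): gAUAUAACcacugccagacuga
mmu-miR-344e-3p (A230057D06Rik, chr7:61735539-61735560, minus strand): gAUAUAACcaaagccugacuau
mmu-miR-344h-3p (A230057D06Rik, chr7:61739350-61739371, minus strand): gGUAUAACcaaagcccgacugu
The Mir344 arms fall into groups by seed: miR-344-3p and miR-344c-3p share GAUCUAG, miR-344d-3p and miR-344e-3p share AUAUAAC, and miR-344h-3p carries GUAUAAC. On the other arm, 4 of the mature sequences (miR-344-5p, miR-344b-5p, miR-344c-5p and miR-344d-3-5p) share the seed GUCAGGC. Those of Mir100hg and Rian that are shown share no seed with each other.

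Of the pseudogenes, 3 are shown beside a 90-base stretch of the coding part of the gene they resemble, because how far a copy has drifted decides whether its reads can be told from those of its source. Capitals mark the columns in which the paired sequences differ. The stretch is bases 1 to 90 of the coding part of Fau and of Smarca5 and bases 313 to 402 of that of Pisd, and the letters and gene positions are those of GRCm38.
Fau-ps2, chr11:3196454-3196824, minus strand: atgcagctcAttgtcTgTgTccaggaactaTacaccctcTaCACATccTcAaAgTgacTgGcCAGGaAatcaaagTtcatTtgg
Fau, chr19:6057844-6059524, plus strand: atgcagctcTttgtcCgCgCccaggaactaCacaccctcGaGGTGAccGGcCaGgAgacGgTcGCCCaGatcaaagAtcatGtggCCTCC
Pisd-ps1, chr11:3125904-3131004, plus strand: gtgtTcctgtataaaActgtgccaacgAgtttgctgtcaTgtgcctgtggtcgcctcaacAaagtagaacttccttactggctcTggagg
Pisd, chr5:32736301-32785646, minus strand: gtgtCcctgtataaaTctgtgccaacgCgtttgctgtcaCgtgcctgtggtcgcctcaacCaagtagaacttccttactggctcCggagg
Gm13034, chr4:146067752-146070928, plus strand: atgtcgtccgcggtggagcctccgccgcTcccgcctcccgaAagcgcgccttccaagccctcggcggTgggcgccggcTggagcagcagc
Smarca5, chr8:80698507-80739497, minus strand: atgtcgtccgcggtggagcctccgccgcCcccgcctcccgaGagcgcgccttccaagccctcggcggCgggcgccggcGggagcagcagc
The windows differed at 30 columns for Fau-ps2, 6 of them gaps, at 6 columns for Pisd-ps1 and at 4 columns for Gm13034. Fau-ps2 is thus the most diverged of the 3 and Gm13034 the least.

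The lncRNAs had a median average log2 CPM of 5.93 (range 5.06 to 8.08), the pseudogenes 5.83 (5.02 to 7.30), and the TEC locus 7.94. The same median was 5.54 over the 495 protein-coding higher genes and 6.39 over the 2905 protein-coding lower genes with a gene model in the annotation used here. Above 7 lay 5 of the 24 members, namely ENSMUSG00000115801 at 8.08, Gm37985 at 7.94, Gm4117 at 7.33, Fau-ps2 at 7.30 and Gm12735 at 7.21. Another 5 lay within 0.1 of the minimum, between 5.02 and 5.07: Gm13034, Gpr31c, 4930455J16Rik, 4930500H12Rik and 4933438K21Rik. Whether further non-coding genes lie just below the minimum cannot be seen from the tables.

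Division by length reordered them. The 5 highest by CPM per kb were Fau-ps2 at 424.1, Gm12735 at 227.1, Pisd-ps1 at 36.6, 4933438K21Rik at 19.9 and Gm5373 at 15.5, all of them under 5 kb of exon. The class medians were 3.82 CPM per kb for the lncRNAs and 12.8 for the pseudogenes. ENSMUSG00000115801, the first by total level, was the lowest of all 24 per length, at 2.90 CPM per kb.

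**Figure D1:**
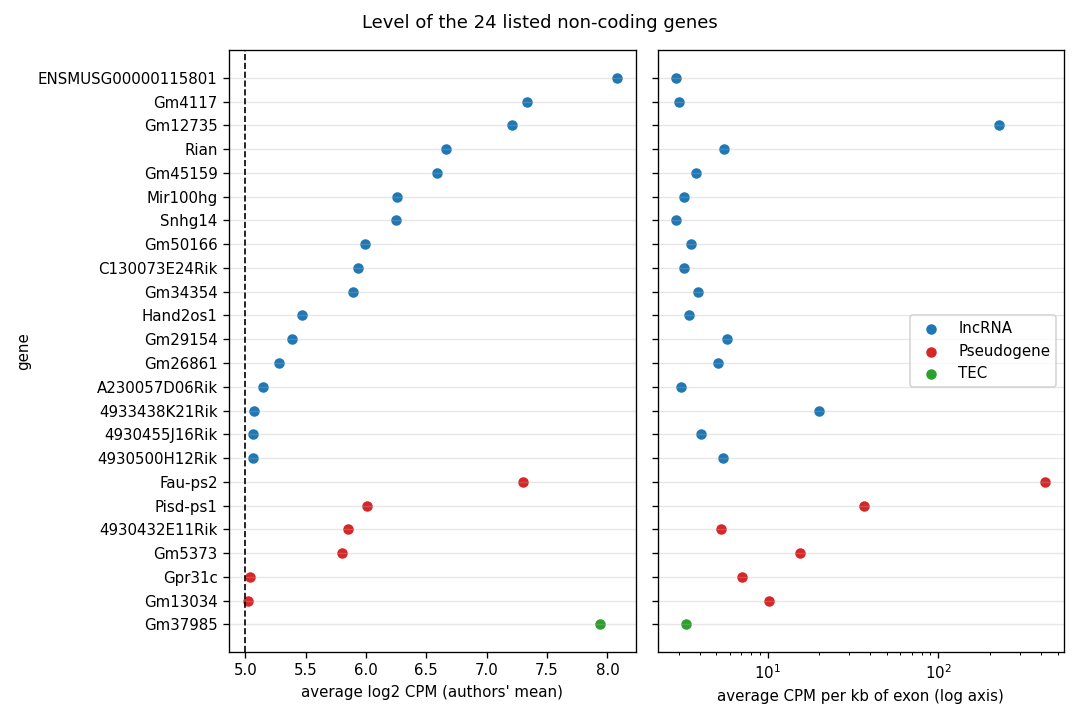
Average log2 CPM (left, dashed line at the least listed value of 5) and average CPM per kb of exon on a log axis (right) of the 24 genes, one point per gene, coloured by class. Fau-ps2 at 424.1 and Gm12735 at 227.1 CPM per kb stand apart on the right, while most lncRNAs lie between 2.90 and 5.74.

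Some members of known function lie in imprinted regions, where only the maternal or the paternal copy of a gene is active. Rian, a maternally expressed host RNA of the Dlk1 to Dio3 region, lies at chr12:109603940-109661716 and had an average log2 CPM of 6.66, or 5.54 CPM per kb over 18234 bases of exon. Its gene holds 13 snoRNA and 4 microRNA genes, of which RefSeq gives mature sequences for 3, including miR-341 and miR-370 shown above. Its nearest protein-coding gene, the retrotransposon-derived Rtl1 at a distance of 3610 bases on the opposite strand, was not listed. Meg3 and Mirg, the neighbouring host RNAs of the same region, were not listed either.

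Snhg14, the long paternally expressed host RNA of the Prader-Willi and Angelman region, had an average log2 CPM of 6.25 and 2.91 CPM per kb. Its gene covers 667.8 kb at chr7:59307924-59975759 with 65 exon blocks, and 208 snoRNA genes lie inside it, 17 of them named Snord116. It runs antisense through Ube3a, a ubiquitin ligase that Snhg14 is known to silence on the paternal chromosome of neurons. Ube3a was listed as lower, at an average log2 CPM of 6.78. The kit kept strand, but whether the counting used it is not given in the sources used here, and 1803 exon bases of Snhg14 overlap exons of genes on the other strand, so reads of the paired genes may not have been told apart. Such an overlap was found in 9 members in all, with 3823 bases of ENSMUSG00000115801, the first by level, 2328 of 4930432E11Rik, 635 of Gm45159, 585 of Mir100hg, 461 of Hand2os1 and 77 to 189 of Gm34354, 4930455J16Rik and 4930500H12Rik. A230057D06Rik, the Mir344 host, lies 1728759 bases from Snhg14 on the same strand, and its level was 5.15, or 3.12 CPM per kb. Its nearest coding gene, the imprinted Ndn, lies 417879 bases away and was not listed.

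Mir100hg, which holds the genes of miR-100, let-7a-2 and miR-125b-1, was at an average log2 CPM of 6.26 and 3.21 CPM per kb over 23898 bases of exon. The level belongs to the host transcript and cannot be read as that of the microRNAs. Hand2os1 overlaps Hand2, the gene of a transcription factor of heart and limb, on the opposite strand, and was at 5.47, or 3.46 CPM per kb. Hand2 itself was not listed. One exon of Hand2os1 holds a stretch that matched the mRNA of the ribosomal protein gene Rps7 at 86.1% over 684 bases, and Rps7 was listed as lower.

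The widely studied non-coding RNAs were mostly absent from the tables. So were annotated lncRNAs in general, of which 17 of 10155 (0.167%) were listed as higher. Of a list of 40, which holds nuclear RNAs such as Malat1 and Neat1, Xist, the imprinted H19 and Kcnq1ot1, and the growth-related Gas5 and Snhg family, 35 had a gene of that name in the annotation. Rian and Snhg14 were listed as higher, 0 were listed as lower, and 33 were not listed. One known lncRNA outside this list, Tug1, is typed as protein coding in the tables and stood among the lower genes at 5.66, and it was noticed only when gene types were compared between annotations.

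Most of the remaining lncRNAs are poorly studied genes with a large total exon length. Of the 24 members, 17 had more than 5 kb of exon, from 6073 to 93147 bases. This length joins the exons of all transcripts of a gene and can exceed that of each transcript. Gm29154 has 7316 bases over 58 transcripts, of which the longest has 1733, whereas ENSMUSG00000115801 has 1 transcript. The range that follows holds for the joined length and was not computed by longest transcript. Over these 17 members, exon length spanned 15.3-fold, while CPM per kb lay between 2.90 and 5.74, a range of 1.98-fold. Their average log2 CPM therefore followed exon length closely (Spearman's rho 0.92, Pearson's r 0.96 with log2 length, across 17 genes, which are not independent replicates and share all libraries). The 5 kb limit was not set in advance, and the values depend on it. Over all 24 members rho was 0.50 and r 0.31, and over the 17 lncRNAs 0.66 and 0.42. Over the 7 members with at most 5 kb they were -0.75 and -0.88. The protein-coding higher genes gave 0.67 and 0.64. The least level of 32 CPM itself sets a floor per kb that falls with length, from 5.27 CPM per kb for 4930500H12Rik to 0.344 for ENSMUSG00000115801. 4930500H12Rik at 5.50 and 4930455J16Rik at 4.09, against a floor of 3.92, lay close to it, and the longest members lay far above it.

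Protein-coding genes of the same exon length showed where this level stands. The 454 protein-coding higher genes between 6073 and 93147 bases had a median of 4.36 CPM per kb (quartiles 3.72 and 5.24). The 17 long members had a median of 3.57 (quartiles 3.21 and 5.13). The 1141 protein-coding lower genes of that length had a median of 12.1 CPM per kb (quartiles 9.33 and 17.1). By level per joined exon length the long non-coding genes thus lay with the coding genes listed as higher, and below most of those listed as lower. The comparison was not repeated with the longest transcript.

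**Figure D2:**
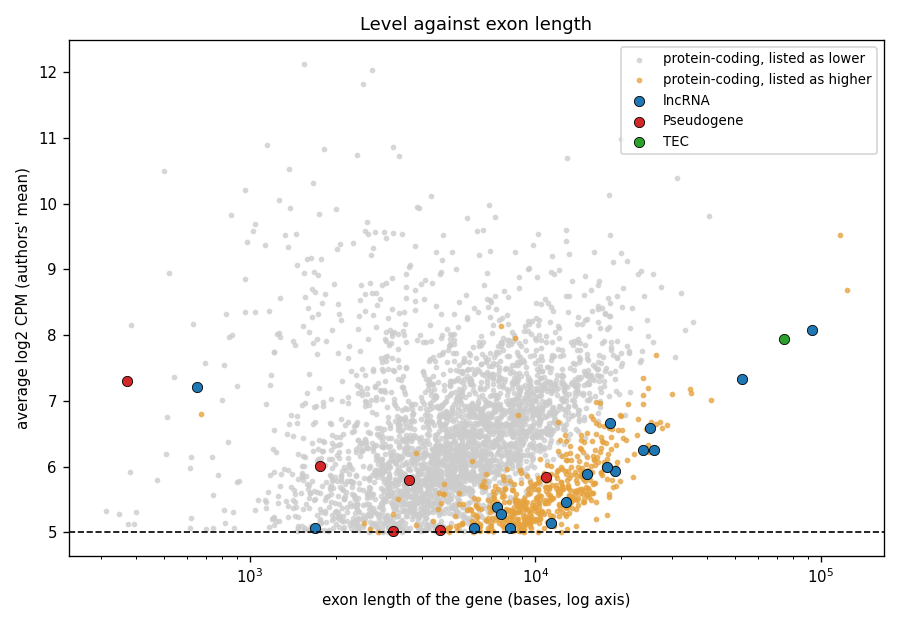
Average log2 CPM against exon length (log axis) for lncRNAs, pseudogenes and the TEC locus, with protein-coding genes listed as higher (orange) and as lower (grey), one point per gene, and a dashed line at 5. The long members run in the lower part of the cloud, among the protein-coding genes listed as higher, from 5.06 at 6073 bases to 8.08 at 93147 bases. Fau-ps2 and Gm12735 lie at the short end above 7.

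The 3 longest members show the pattern. ENSMUSG00000115801, which has no symbol in the tables, is annotated as a single exon of 93147 bases at chr14:44544055-44637201, the longest of 10155 annotated lncRNAs. Gm37985, the TEC locus, is a single exon of 74456 bases at chr4:12597388-12671843, with 3.31 CPM per kb. Gm4117 has 52997 bases in 3 exon blocks at chr13:89739460-89887166, the third longest of the annotated lncRNAs, with 3.03 CPM per kb. Gm50166, another single exon of 17803 bases, was at 5.99, or 3.57 CPM per kb.

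The other long lncRNAs were spliced. Gm45159 had 25241 bases in 2 exon blocks and an average log2 CPM of 6.59, C130073E24Rik 19000 bases and 5.93, and Gm34354 15212 bases and 5.89. Gm29154 (5.39), Gm26861 (5.28), 4930455J16Rik (5.06) and 4930500H12Rik (5.06) had between 6073 and 8153 bases of exon in 11 to 19 blocks. In all 7, CPM per kb was between 3.21 and 5.74.

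The share of annotated genes that were listed as higher was larger in each longer range of exon length from 5 kb upward, in both gene types. Of annotated lncRNAs, 5 of 8 with more than 20 kb of exon were listed as higher (62.5%), 6 of 21 with 10 to 20 kb (28.6%), 4 of 299 with 5 to 10 kb (1.34%), 1 of 4935 with 1 to 5 kb and 1 of 4892 with up to 1 kb. Of annotated protein-coding genes 28 of 112 with more than 20 kb were listed as higher, 17.6% of 1424 with 10 to 20 kb, 3.59% of 5517 with 5 to 10 kb, 0.162% of 12952 with 1 to 5 kb and 0.411% of 1946 with up to 1 kb. Among coding genes over 20 kb as many were listed as lower, 28 of 112. In every shorter range more were listed as lower than as higher, 377 against 251 at 10 to 20 kb and 1117 against 198 at 5 to 10 kb. The length ranges above 10 kb hold few lncRNAs, and a long gene reaches the minimum of 32 CPM at a lower level per length, so the shares describe the lists and not a tested difference.

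**Figure D3:**
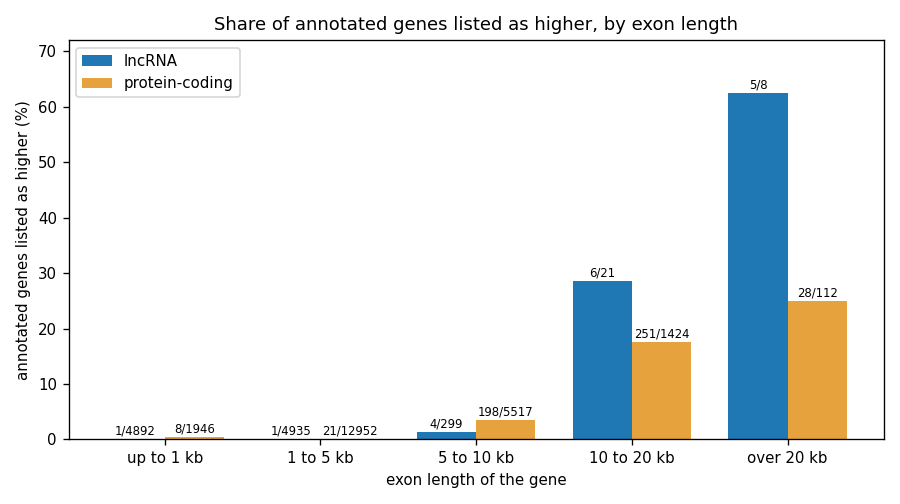
Percent of annotated genes listed as higher in 5 ranges of exon length, for lncRNAs (blue) and protein-coding genes (orange), with listed and annotated genes above each bar. The share of lncRNAs runs from 1 of 4892 up to 1 kb to 5 of 8 over 20 kb.

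The 7 members with at most 5 kb of exon, 5 pseudogenes and the lncRNAs Gm12735 and 4933438K21Rik, lay above this range, from 7.10 to 424.1 CPM per kb. Fau-ps2, a processed copy of the ribosomal protein gene Fau, has 371 bases of exon, and its average log2 CPM of 7.30 equals 424.1 CPM per kb, the highest of all members. Fau, which encodes ribosomal protein S30 behind a ubiquitin-like part, was listed as lower, at 8.36 or 340.9 CPM per kb. The copy aligned to Fau at 73.2% over 395 columns, and all 31 windows of 64 bases tested in it occur once, by exact match, in the assembled chromosomes. Gm12735, a lncRNA of 651 bases, had 7.21, or 227.1 CPM per kb, and its 53 windows were likewise found once.

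These are parts of a single stretch of 70921 bases on chromosome 11, chr11:3125904-3196824. It holds Pisd-ps1 at an average log2 CPM of 6.01, the coding gene Sfi1 at 8.14, Gm12735 at 7.21 and Fau-ps2 at 7.30, all listed as higher. Within Sfi1 lie the antisense gene Gm11399 and the processed pseudogene Gm11400, non-coding genes that were not listed. Sfi1 encodes a centrosomal protein that binds centrin. Gm12735 and Fau-ps2 lie 2190 bases apart inside the span of Drg1, a GTPase gene on the same strand, and share no exon base with it. Drg1 was listed as lower, at 5.74 or 15.5 CPM per kb, against 227.1 for Gm12735. Eif4enif1, a translation regulator gene just beyond Fau-ps2 and within the span of Drg1, was also listed as lower, at 5.70.

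The genes of this stretch made up most of the higher genes with a high level per length. Outside the satellite repeats, 6 of 521 higher genes exceeded 25 CPM per kb: Fau-ps2, Gm12735, Gm17535 at 166.3, Sfi1 at 37.4, Pisd-ps1 at 36.6 and Mroh2a at 29.2. The stretch holds 4 of them, and Gm17535 and Mroh2a lie on chromosomes 9 and 1. Gm17535 had 20.4% unique windows, whereas all windows of Mroh2a were unique.

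**Figure D4:**
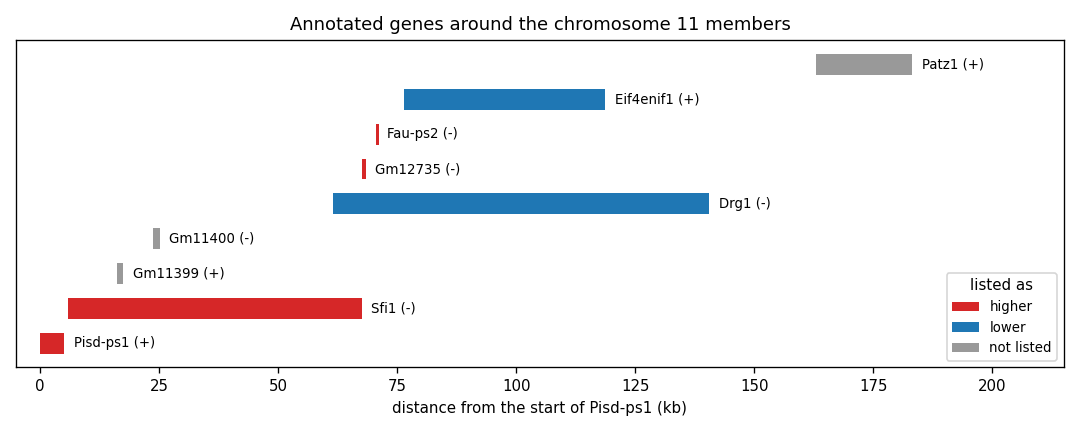
Annotated genes within 100 kb of the chromosome 11 members, drawn to scale against the distance from the start of Pisd-ps1 in kb, with strand in brackets and coloured by listing. The 4 higher genes lie within the first 70.9 kb, and Drg1, listed as lower, extends over Gm12735 and Fau-ps2.

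Pisd-ps1 is an unprocessed copy of part of Pisd, the mitochondrial enzyme that makes phosphatidylethanolamine. It was at 36.6 CPM per kb over 1757 bases of exon, and 82.1% of its windows were unique. It matched Pisd at 94.1% over 237 bases, and Pisd was not listed. Gm13034, a processed copy of the chromatin remodeller gene Smarca5, was at 5.02 or 10.2 CPM per kb. It matched Smarca5 at 97.2% over 3181 bases, nearly its whole length of 3177, and 33.7% of its windows were unique. Smarca5 itself was listed as lower, at 7.29 or 20.1 CPM per kb.

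Gpr31c, a processed copy of a G protein-coupled receptor gene, was at 5.04 or 7.10 CPM per kb, and it matched Gpr31b at 98.8% over 1283 bases. Only 27.9% of its windows were unique, the lowest share of the 24. Gpr31b was not listed, and the nearest coding gene of Gpr31c, Tcp10c, was listed as higher at 5.06. Gm5373, an unprocessed pseudogene with 13 exon blocks, was at 5.80 or 15.5 CPM per kb with 41.3% unique windows. The unitary pseudogene 4930432E11Rik was at 5.85 with 10871 bases of exon and 5.29 CPM per kb, so it resembled the long lncRNAs more than the other pseudogenes.

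How far reads can be placed by exact sequence differed between the classes. A copy that differs by any base within a window was not counted as a second place. The median share of unique 64-base windows was 98.1% over the lncRNAs, 61.7% over the pseudogenes and 99.9% over the protein-coding higher genes. Of 24 members 8 were under 90%, namely the pseudogenes Pisd-ps1, Gm5373, Gm13034 and Gpr31c and the lncRNAs 4933438K21Rik, ENSMUSG00000115801, Snhg14 and Gm50166. How reads that match several places were counted is not given in the sources used here, so the levels of these 8 are uncertain, and whether such reads bear on their listing was not tested. 4933438K21Rik, an antisense transcript of 1693 bases in the zinc finger gene region of chromosome 4, had 28.3%, and Gm13034 lies 992437 bases from it.

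**Figure D5:**
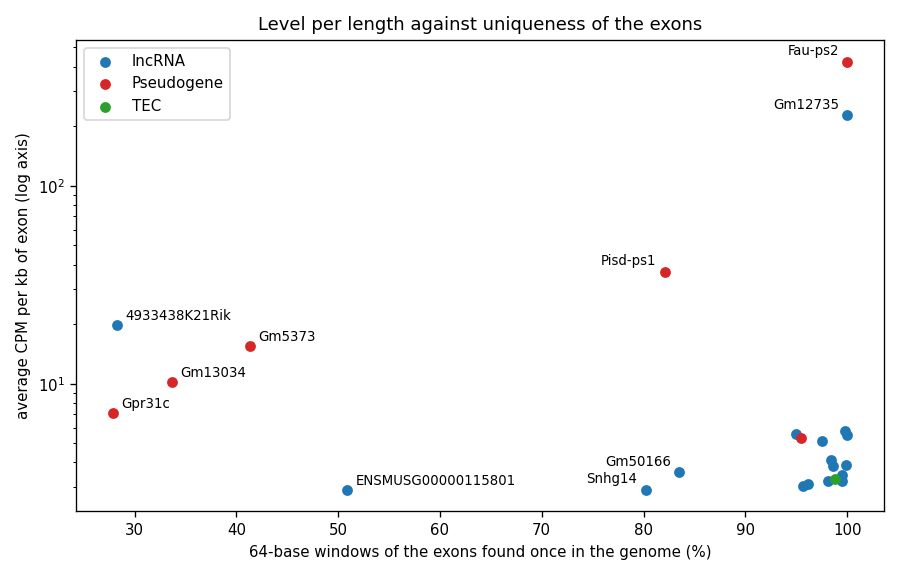
Average CPM per kb of exon (log axis) against the percent of 64-base exon windows that occur once in the genome by exact match, one point per member. Fau-ps2 and Gm12735 combine the highest levels with 100% unique windows, and 5 members have 50.9% or less.

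Matches to coding transcripts of other loci, at 80% identity over 100 bases or more, were found for 15 of the 24 members. Of 21951 annotated coding genes, 13.2% were listed as lower and 2.31% as higher. The best match was listed as lower for 4 of the 15 members, as higher for 2 and not at all for 9. Whether this split departs from those shares was not tested. Besides Rps7 and Smarca5, the lower ones were Rpl13 with 4930455J16Rik (80.9% over 194 bases) and Unc119b with Gm50166 (95.3% over 1377 bases). The higher ones were both chemosensory receptors: Vmn2r53 matched ENSMUSG00000115801 at 94.9% over 6186 bases, and Olfr1307 matched Gm4117 at 88.3% over 2381 bases. Whole transcripts were searched, untranslated parts included, and alignments could extend into masked repeats. Whether the receptor coding parts matched was therefore not shown. ENSMUSG00000115801 matched 190 coding genes in all. Gm4117 matched 45, which include genes other than receptors, such as Ddx39a and Psma2. A search of the 10 satellite repeat genes found a match in 0 of the 24 members.

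The neighbouring coding genes were listed in both directions. The members overlapped, or else had as their nearest, 25 distinct coding genes, of which 6 were listed as higher and 2 as lower. Over the annotation as a whole, 2.31% of 21951 coding genes were listed as higher and 13.2% as lower, but 4 of the 6 higher neighbours have 10 to 20 kb of exon, a range in which 17.6% of coding genes were listed as higher. Vcan, a matrix proteoglycan gene overlapped by Gm4117 on the other strand, was higher at 5.87, and Dlg2, a synaptic scaffold gene that overlaps Gm45159 on its own strand, was higher at 6.50. Ntrk2, the receptor of the neurotrophin BDNF, was higher at 6.06 and is nearest to 2 members, Gm34354 at 11903 bases and 4930455J16Rik at 44209 bases. C130073E24Rik is nearest to Tenm3, higher at 5.76, but 1899340 bases away. Per length, Vcan was at 4.04, Dlg2 at 5.57, Ntrk2 at 3.47 and Tenm3 at 5.31 CPM per kb, against 3.03 to 4.09 for the lncRNAs beside them, so that Dlg2 and Tenm3 lay above that range.

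In the members' own sequence, the lncRNAs had a median GC content of 42.0% and the pseudogenes 47.6%, against 43.6% and 48.4% in the protein-coding higher and lower genes. Repeats masked a median of 18.4% of the exon bases of the lncRNAs, up to 44.7% in ENSMUSG00000115801, and 8.13% of those of the pseudogenes. The protein-coding higher genes had 11.7%. These differences between classes were not tested, since the genes of a class are not replicates of a condition.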

How the data were processed

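RNA of sorted lung ILC2s was sequenced after library preparation with a stranded SMART kit. Per the study's methods, the authors used STAR and GRCm39 for alignment, featureCounts and an Ensembl annotation for counting, and edgeR for the comparison. The methods name the Ensembl release, whereas tool versions and the libraries that entered the fit are not given in the sources used here. The submitters' processing notes name mm10. The deposited average log2 CPM is the authors' mean over libraries. The other deposited columns, a log2 fold change, a likelihood ratio, a p-value and an FDR, hold the authors' own comparison and were not used. Per-sample columns left unused numbered 0. Genes were taken by the gene type in the tables, and the members and lists were chosen with earlier results of these data known. They were named by class, the 5 highest by level and by CPM per kb first, with matched and neighbouring coding genes. Tug1, Mroh2a, Gm17535, Eif4enif1 and Sfi1 were named after their values were seen.

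Exons (the union over transcripts), position and type were looked up by Ensembl identifier in GENCODE M21 (build GRCm38), and were found for all 24 members, 531 of 533 higher and 2905 of 2906 lower genes. That build and annotation differ from the authors'. Uniqueness was the share of 64-base exon windows, taken every 10 bases, with 1 match in the genome on either strand, tested on simulated data. Only exact matches in the assembled chromosomes and the mitochondrial genome were counted, so unplaced sequence and near-identical copies were not. Matches to other loci were sought with BLAST 2.17.0 (80% identity, 100 bases). Mature microRNAs came from RefSeq (GRCm38.p6). Python 3.11.15, pandas 2.3.3, numpy 2.4.6 and scipy 1.17.1 were used. No test between the populations was possible, since no value of a single library is in the tables used here. Alternatives were another minimum level, another gene length, another annotation's gene types, stricter matches and a distance limit for neighbours.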

Additional observations from a re-analysis of the deposited data

How the results depend on the processing

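No paired analysis was possible because the tables carry no columns of single libraries, and for the same reason no library could be left out and depth could not be weighed. With a minimum average log2 CPM of 6, 7 lncRNAs and 2 pseudogenes remained of 17 and 6, with medians of 6.66 and 6.65 for what was left, so most members lie close to the minimum. Without its highest gene, the median was 5.91 for the lncRNAs and 5.80 for the pseudogenes. The level per length depended on the length used. By the longest transcript, the median CPM per kb was 9.53 for the lncRNAs and 14.5 for the pseudogenes, and by genomic span it was 1.03 and 8.66. Under alternatives chosen after seeing the data, the medians were 3.70 and 8.66 without the genes of the chromosome 11 stretch, and 3.89 and 214.7 over members with at least 90% unique windows, the last over 2 pseudogenes. Matches at 90% identity over 200 bases were found for 7 members in place of 15. The best of these was listed as lower for Gm13034 and Gm50166, as higher for ENSMUSG00000115801 and not at all for the others. With the gene types of the GENCODE annotation, 20 genes counted as lncRNAs, the additional ones being Cct6a, Trerf1 and Tug1, all listed as lower. Cct6a and Trerf1 are protein-coding genes that GENCODE M21 types as processed transcripts, a type counted here with the lncRNAs. Only Tug1 among them is a known lncRNA, so through Tug1 the absence of lncRNAs from the lower genes depends on the annotation. Counted as pairs of a member and a coding gene, in which Ntrk2 and Drg1 each stand 2 times, neighbours were listed as higher in 7 pairs and as lower in 3, and within 50 kb in 6 and 3.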
